A study of Mus musculus with 12 samples.

Results

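The genes described here are the Hox, Pax, Tbx and Gata transcription factors, families that lay out the body plan of the embryo. They were taken as every gene on the array with a single symbol made of Hox, a cluster letter and a number, or of Pax, Tbx or Gata and a number. This gave 62 of the 19248 genes measured: 35 Hox, 9 Pax, 12 Tbx and 6 Gata genes. Each had 1 probe set. The tissue was striatum, the forebrain nucleus hit hardest in Huntington's disease (HD), from 12 mice aged 8 weeks, in 4 groups of 3. NT_p62WT mice carried no HD transgene and had normal p62, NT_p62KO mice carried no HD transgene and lacked p62, HD_p62WT mice carried the HD transgene with normal p62, and HD_p62KO mice carried the transgene and lacked p62. The cross was made to see how loss of p62, the autophagy receptor encoded by Sqstm1, changes gene expression in an HD model. The labels used here name neither the transgene line nor its promoter, and they do not say which part of Sqstm1 the knockout removes. The question for the developmental factors was whether any of these genes, most of them dim in this tissue, came up in HD mice.

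Hox genes lie in 4 chromosomal clusters and encode homeodomain proteins that give each level of the head-to-tail axis its identity. They are active in hindbrain and spinal cord but normally stay off in the forebrain. Pax proteins bind DNA through a paired domain, Tbx proteins through a T-box, and Gata proteins through zinc fingers that read GATA sites; each family directs organ formation, and a few members, such as Pax6, keep working in the adult brain. Polycomb repressive complexes hold such genes silent in adult neurons: PRC2 places a methyl mark on lysine 27 of histone H3, and PRC1 binds it and compacts the gene.

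The 35 Hox genes fell into the known clusters in the RefSeq gene table (build GRCm38.p6). There were 8 Hoxa genes over 91.8 kb at chr6:52169059-52260880, 9 Hoxb genes over 173.9 kb at chr11:96194316-96368254, 9 Hoxc genes over 115.7 kb at chr15:102921131-103036856 and 9 Hoxd genes over 96.9 kb at chr2:74668225-74765142. The listed spans of Hoxa3 with Hoxa5, Hoxa3 with Hoxa6, Hoxb3 with Hoxb4, Hoxd3 with Hoxd4 and Hoxd10 with Hoxd11 overlap, so signal of these neighbours may not be fully separate.

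Polycomb targets are typically rich in CG dinucleotides around their start sites. The windows before the start are shown here to set the factors beside the olfactory receptors, a family largely silent outside the nose that serves below as a reference for dim genes. RefSeq windows (GRCm38.p6) were found for 39 of the 62 factors. In the 250 bases before the start, the median was 13 CG dinucleotides for the factors, 11 for the 15157 genes tested that have a window, and 1 for 805 olfactory receptor genes. The windows below belong to the 3 factors with the smallest p for lower values in HD that have one, and to the olfactory receptor gene of middle brightness. All run 5′ to 3′ on the gene's strand, and capitals mark each CG. The Gata5 window is chr2:180334680-180334929 on the minus strand, the Hoxb1 window chr11:96365508-96365757 on the plus strand, the Gata3 window chr2:9878601-9878850 on the minus strand and the Olfr622 window chr7:103640139-103640388 on the minus strand.
Gata5: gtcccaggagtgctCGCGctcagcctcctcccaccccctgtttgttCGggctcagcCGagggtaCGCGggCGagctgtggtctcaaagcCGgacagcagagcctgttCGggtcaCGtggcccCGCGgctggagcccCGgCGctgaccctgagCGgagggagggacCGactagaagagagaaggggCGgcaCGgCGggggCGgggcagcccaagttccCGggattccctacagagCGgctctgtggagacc
Hoxb1: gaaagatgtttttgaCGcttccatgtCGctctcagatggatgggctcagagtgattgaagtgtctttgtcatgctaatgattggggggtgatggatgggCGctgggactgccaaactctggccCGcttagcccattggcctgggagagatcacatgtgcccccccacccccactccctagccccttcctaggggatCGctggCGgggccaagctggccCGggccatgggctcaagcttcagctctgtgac
Gata3: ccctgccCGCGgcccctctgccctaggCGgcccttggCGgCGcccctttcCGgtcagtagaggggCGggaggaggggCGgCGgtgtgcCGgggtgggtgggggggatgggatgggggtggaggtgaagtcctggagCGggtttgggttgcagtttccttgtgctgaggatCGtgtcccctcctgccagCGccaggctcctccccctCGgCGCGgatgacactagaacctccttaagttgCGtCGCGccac
Olfr622: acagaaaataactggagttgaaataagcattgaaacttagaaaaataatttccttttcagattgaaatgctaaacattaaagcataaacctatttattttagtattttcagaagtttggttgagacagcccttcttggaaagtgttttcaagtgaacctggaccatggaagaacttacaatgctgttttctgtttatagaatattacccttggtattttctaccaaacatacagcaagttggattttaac
The 4 windows hold 22, 7, 19 and 0 CG dinucleotides. The Gata5 and Gata3 windows lie inside the span listed for their own gene (chr2:180325088-180335503 and chr2:9857078-9887953). The 10 factors with a window that were lower in HD (mean effect, below) had a median of 9 CG dinucleotides and the other 29 had a median of 14, a description with no test.

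Short motifs were counted on both strands of the same windows. TGATNNAT, the composite site of HOX proteins with their PBX partners, occurred in 2 of 39 factor windows (5.1%; 6.4% of all windows), those of Hoxb1 and Tbx6. ATTA, the core bound by many homeodomain proteins and contained in some forms of the composite site, occurred in 61.5% of factor windows and 47.6% of all windows. GATAAG, a form of the GATA site, occurred in 2.6% and 5.8%, and the TATA box TATAAA in 10.3% and 11.1%. A match shows letters only, and no match says nothing of a factor elsewhere.

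The arrays gave 1 log2 value per probe set and mouse. The 62 factors were dim: their 12-mouse means ran from 5.22 (Hoxa10) to 9.01 (Pax2) with a median of 6.86, and 51 of them lay below the median gene. Brightness depends on a probe set's sequence as well as on its RNA, so an order of brightness between genes is one of readings and not of RNA amounts; near background the method also understates changes. No detection calls were used. As a rough marker of dimness, the 95th percentile of the 12-mouse means of 939 olfactory receptor genes was 6.87. Of the 62 factors, 31 lay above it, beside 72.3% of all genes. They were 4 of 8 Hoxa, 7 of 9 Hoxb, 0 of 9 Hoxc, 2 of 9 Hoxd, 8 of 9 Pax, 6 of 12 Tbx and 4 of 6 Gata genes. The brightest readings were those of Pax2 (9.01), known from kidney and ear; Hoxd4 (8.86), a hindbrain and cord gene; Pax8 (8.52), the thyroid factor; Hoxb9 (8.47); and Pax5 (8.28), the B cell factor.

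In bulk tissue, fewer cells of a type and less RNA per cell cannot be told apart. Sqstm1 was low in every knockout, at 8.44 to 8.52 in NT_p62KO and 8.92 to 9.13 in HD_p62KO, beside 11.19 to 11.75 in mice with normal p62. The tissue label was borne out by the markers of striatal projection neurons, which were bright (mean of 6 measured markers 10.94 to 11.84 per mouse); all 6 fell in HD with and without p62. The 12 arrays shared a median of 7.79 to 7.83 but not a spread. The SD over all genes was 1.585 to 1.670 in the 6 non-transgenic mice and 1.643 to 1.728 in the 6 HD mice, and on the wider HD arrays dim genes read lower and bright genes higher. Because spread and HD status moved together, they cannot be fully told apart, and values with the spread as a covariate are given for each HD comparison.

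With normal p62, no developmental factor came up in HD mice. The test (limma, adjusted p below 0.05 over all 19248 genes) called 0 of 62 factors higher and 0 lower, where 3.85% of all genes were called higher and 3.24% lower. At an unadjusted p under 0.05, 0 factors were higher and 7 (11.3%) lower, beside 14.5% and 10.8% of all genes, so the share lower was close to that of the array as a whole. The median log2 difference of the factors was -0.09, with 49 of 62 below 0, beside -0.01 for all genes and -0.10 for olfactory receptor genes. With array spread as a covariate the median was -0.05, with 38 of 62 below 0; 0 factors were called, beside 3.06% of all genes higher and 3.84% lower. All 3 HD mice lay below all 3 controls for 16 factors and above them for 0, beside 15.3% and 17.8% of all genes.

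Gata5, a factor of heart and gut endoderm, had the smallest p in this comparison. Its log2 values were 7.42, 7.43 and 7.47 in NT_p62WT mice and 7.15, 7.14 and 7.11 in HD_p62WT mice. The groups did not overlap and each was tight, with a difference of -0.31 ± 0.091 (SE; limma, adjusted p = 0.0615). Leaving out 1 mouse of the p62 knockout groups (NT_p62KO replicate 3, or HD_p62KO replicate 1 or 2), which enter only the shared estimate of spread, called Gata5 and so raised the count from 0 to 1. Hoxb1, which specifies a hindbrain segment, read 7.63, 7.61 and 7.69 in NT_p62WT and 7.39, 7.52 and 7.28 in HD_p62WT (difference -0.25 ± 0.084 SE, adjusted p = 0.0908). Hoxd3 differed by -0.24 ± 0.085 (adjusted p = 0.10) and Tbx22, a factor of palate formation, by -0.34 ± 0.12 (adjusted p = 0.11). The highest difference among the 62 was 0.17, that of Gata1, the red cell factor, which was not called.

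Without p62, 8 developmental factors were lower in HD mice and again none was higher. The 8 of 62 called lower (limma, adjusted p below 0.05) stand beside 8.34% of all genes called lower, and the 0 called higher beside 13.3%. At an unadjusted p under 0.05 the counts were 19 lower (30.6%) and 0 higher, beside 17.6% and 21.2% of all genes and 30.1% of olfactory receptor genes lower. The 8 were Hoxc6, Gata5, Hoxb1, Gata3, Hoxb3, Hoxb5, Pax1 and Hoxc4, with falls of 1.16 to 1.48-fold. The factors' median was -0.17, beside -0.02 for all genes and -0.17 for olfactory receptor genes, of which 10.4% were called lower.

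Hoxc6, a gene of the thoracic level of the axis, gave the smallest p. It read 6.19, 6.11 and 6.28 in NT_p62KO mice and 5.93, 5.68 and 5.76 in HD_p62KO mice, with no overlap. The difference was -0.40 ± 0.078 (SE; limma, adjusted p = 0.00684). All of its values lie below the olfactory receptor level of 6.87, so the fall took place among very dim readings.

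Gata3, a factor of T cells, the inner ear and some brainstem neurons, had the largest change. It read 6.91, 6.55 and 7.04 in NT_p62KO and 6.23, 6.05 and 6.54 in HD_p62KO. The highest HD mouse fell just short of the lowest control, and the difference was -0.56 ± 0.16 (SE; adjusted p = 0.0275). Gata5 read 7.44, 7.45 and 7.64 against 7.28, 6.92 and 7.18 (-0.38 ± 0.091, adjusted p = 0.015).

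Hoxb1, Hoxb3 and Hoxb5, genes of 1 cluster that are active in hindbrain and cord, were among the 8. Hoxb1 read 7.77, 7.66 and 7.79 in NT_p62KO and 7.56, 7.30 and 7.39 in HD_p62KO (-0.33 ± 0.084 SE, adjusted p = 0.0207). Hoxb3 read 7.93, 7.80 and 8.15 against 7.58, 7.32 and 7.52 (-0.49 ± 0.15, adjusted p = 0.0345). Both sets of mice separated completely. Hoxb5 read 6.19, 6.08 and 6.19 against 5.92, 5.92 and 5.96, a smaller but tight difference of -0.22 ± 0.067 (adjusted p = 0.0365).

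Pax1, which forms vertebral discs and thymus, read 8.06, 7.97 and 8.13 in NT_p62KO and 7.89, 7.71 and 7.82 in HD_p62KO (-0.25 ± 0.076 SE, adjusted p = 0.0368). Hoxc4 was the only one of the 8 whose groups overlapped, with 6.07, 5.95 and 6.32 against 5.98, 5.63 and 5.76 (-0.32 ± 0.10, adjusted p = 0.0456). Over all 62 factors, HD mice lay wholly below the controls for 19 and wholly above for 1, beside 17.2% and 22.3% of all genes. The 1 was Pax6, an eye and forebrain factor still used by olfactory bulb interneurons, with a difference of 0.12 that was not called.

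The count of 8 depended on single mice and on array spread. It was 1 without NT_p62KO replicate 3 or without HD_p62KO replicate 2, which are the arrays of the smallest and the largest spread. It was 2 without NT_p62KO replicate 1, 3 without HD_p62KO replicate 3, 5 without HD_p62WT replicate 3 and 17 without HD_p62KO replicate 1. With the spread of each array as a covariate it was 0, and 1.62% of all genes were called higher and 2.76% lower; the factors' median was then -0.04, against -0.17 without the covariate. Hoxc6 was called in each of those leave-outs and not with the covariate.

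**Figure D1:**
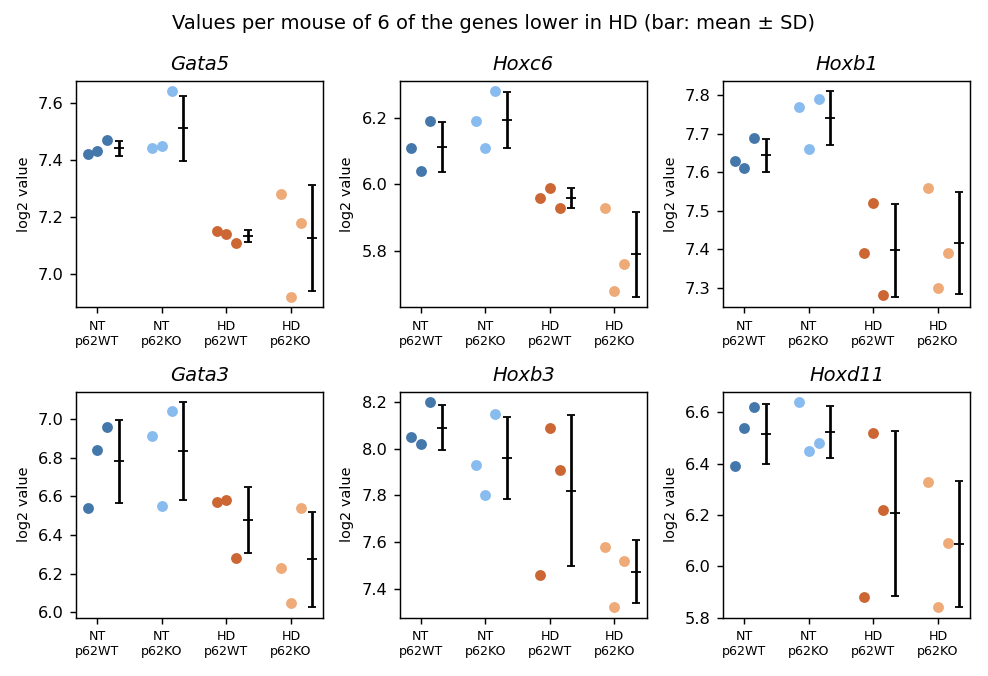
Log2 value of 6 developmental factors (y axis, its own range in each panel) in each of the 12 mice by group (x axis), with the group mean ± SD as a black bar (n = 3); the 6 were chosen after their values were seen. In Gata5, Hoxc6 and Hoxb1 every HD mouse lies below every non-transgenic mouse. In Gata3, Hoxb3 and Hoxd11 the HD_p62WT group reaches into the range of the non-transgenic mice.

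Averaged over both p62 genotypes, 16 of the 62 factors were lower in HD and 0 were higher, and each of the 16 fell by a small amount, 1.09 to 1.35-fold. The 16 of 62, or 25.8%, stand beside 15% of all genes called lower, and the 0 beside 19.9% called higher. The share called lower was 21.8% among olfactory receptor genes and 16.8% among all genes of below median brightness, both sets of dim genes chosen without regard to development; after quantile normalization of the values again these shares were 6.9% and 10.8%, and that of the factors 21.0%. At an unadjusted p under 0.05 the counts were 22 lower (35.5%) and 0 higher, beside 22.1% and 24.7% of all genes and 40.0% of olfactory receptor genes lower. The 16 include all 8 called without p62.

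By family, the median mean HD effect was -0.15 over the 35 Hox genes, of which 11 fell and all lay below 0. This count and those that follow stand beside 15% of all genes called lower. Hoxb had 5 of 9 genes lower, Hoxd 3 of 9, Hoxc 2 of 9 and Hoxa 1 of 8. By position in the cluster, 6 of 9 genes of paralog groups 1 to 4, the head-side genes, fell, as did 3 of 10 of groups 5 to 8 and 2 of 16 of groups 9 to 13; the probe sets of the head-side genes also gave brighter readings (median 7.55, against 6.34 and 6.31), and the difference between groups was not tested. Gata genes fell in 3 of 6 cases (median -0.18), Pax in 1 of 9 (median -0.07, which turned to 0.04 with array spread as a covariate) and Tbx in 1 of 12 (median -0.11). With array spread as a covariate the only calls were Gata5 and Hoxc6, a gene of groups 5 to 8, so no head-side gene was called. The medians were then -0.01 for Hoxa, -0.06 for Hoxb, -0.065 for Hoxc, -0.02 for Hoxd, -0.02 for Tbx and -0.11 for Gata.

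Gata5 again led. Its 6 non-transgenic mice ran from 7.42 to 7.64 and its 6 HD mice from 6.92 to 7.28, a gap with no overlap (-0.35 ± 0.064 SE; limma, adjusted p = 0.00235). Hoxc6 ran from 6.04 to 6.28 in non-transgenic and 5.68 to 5.99 in HD mice (-0.28 ± 0.055, adjusted p = 0.00332). Hoxb1 ran from 7.61 to 7.79 and from 7.28 to 7.56 (-0.29 ± 0.059, adjusted p = 0.00404). In each of these 3 genes the 6 HD mice lay below the 6 others.

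Hoxb5 and Pax1 were the other factors whose 6 HD mice all lay below. Hoxb5 ran from 5.99 to 6.19 in non-transgenic mice and 5.91 to 5.96 in HD mice (-0.19 ± 0.047 SE, adjusted p = 0.00976). Pax1 ran from 7.90 to 8.13 and from 7.71 to 7.89 (-0.20 ± 0.054, adjusted p = 0.0131). That makes 5 factors wholly lower and 0 wholly higher, beside 5.69% and 10.5% of all genes.

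The remaining 11 overlapped between HD and non-transgenic mice. Gata3 had the largest fall of the 16, -0.43 ± 0.11 (SE; adjusted p = 0.0118). Hoxb3 fell by 0.38 (adjusted p = 0.0153) and Hoxd11, which shapes forearm and kidney, fell by 0.38 (adjusted p = 0.0193). Hoxd11 read 5.88, 6.52 and 6.22 in HD_p62WT and 6.33, 5.84 and 6.09 in HD_p62KO, so 1 HD_p62WT mouse lay inside the non-transgenic range of 6.39 to 6.64 and the other 5 HD mice lay below it.

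Tbx22 fell by 0.31 (adjusted p = 0.019), Hoxc4 by 0.28 (adjusted p = 0.0139), Hoxd4 by 0.27 (adjusted p = 0.0347) and Hoxa11 by 0.23 (adjusted p = 0.0352). Gata4, the cardiac factor, and Hoxb6 each fell by 0.22 (adjusted p = 0.0391 and 0.0481), Hoxd3 by 0.19 (adjusted p = 0.0258) and Hoxb2 by 0.13 (adjusted p = 0.0488). Of the 46 factors not called, 4 had a mean effect above 0. They were Pax6 (0.07), Gata1 (0.04), Tbx3 (0.02) and Pax3 (0.01), the last a neural crest and muscle factor.

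The brightest and the dimmest factor of each family mostly fell short of the test. Hoxb9 read 8.30, 8.56 and 8.28 in HD_p62WT and 8.48, 8.25 and 8.37 in HD_p62KO, beside 8.36 to 8.75 in non-transgenic mice, and its mean HD effect was -0.20 ± 0.076 (SE; limma, adjusted p = 0.0604). Hoxa9, a blood progenitor factor, gave -0.18 ± 0.071 (adjusted p = 0.0664) and Hoxa10, the dimmest of the 62, -0.07 ± 0.11 (adjusted p = 0.625). Hoxc13, a hair follicle factor, and Hoxc9 were the ends of the Hoxc range (-0.11 ± 0.063 and -0.08 ± 0.12), and Hoxd10 was the dimmest Hoxd gene (-0.13 ± 0.074). Tbx4, which builds the hindlimb, read 7.94, 7.97 and 8.07 in NT_p62WT and 7.82, 7.96 and 7.80 in HD_p62WT, and its mean HD effect was -0.14 ± 0.059 (adjusted p = 0.0788); Tbx15, the dimmest Tbx gene, gave -0.15 ± 0.096. The bright genes Pax2 (-0.09 ± 0.067), Pax8 (-0.05 ± 0.099), Pax5 (-0.07 ± 0.11) and Gata2 (-0.03 ± 0.043) had adjusted p of 0.284 to 0.676. Pax2, the brightest of all, read 8.91 to 9.23 in non-transgenic and 8.74 to 9.09 in HD mice, with wide overlap.

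**Figure D2:**
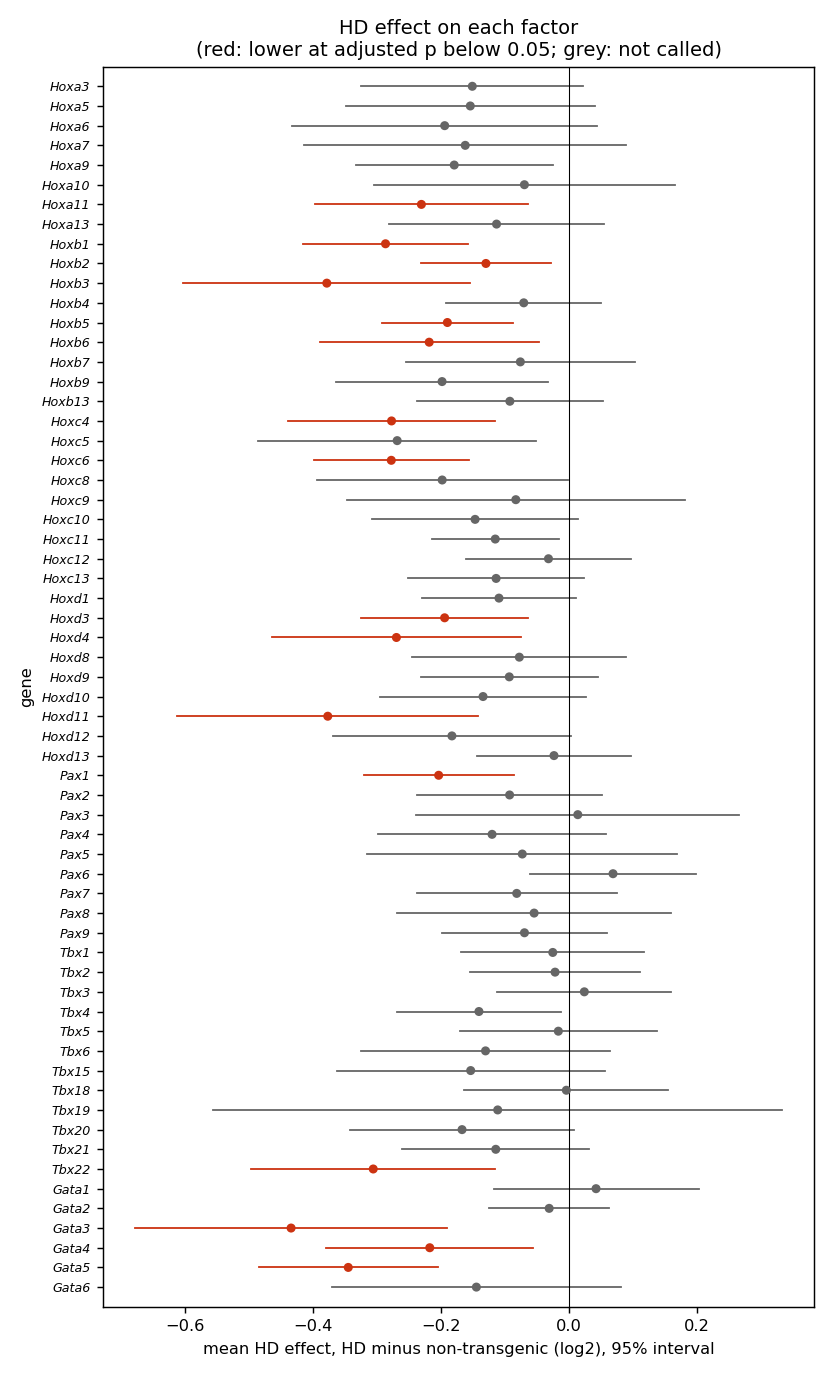
Mean HD effect (x axis, HD minus non-transgenic, log2) of each of the 62 factors (y axis, by family), with 95% intervals from the limma fit (n = 6 against 6 mice); red marks the 16 called lower at an adjusted p below 0.05 and grey the 46 not called. The points run from -0.43 (Gata3) to 0.07 (Pax6), and no interval lies wholly above 0.

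The intervals show how large a rise the fit without array spread leaves room for, 1 factor at a time and unadjusted over the 62. In the mean HD effect, Tbx19, the pituitary corticotroph factor, had the highest upper 95% bound, 1.26-fold, and 1 of 62 factors had a bound above 1.25-fold. With normal p62 the highest bound was 0.58 on the log2 scale and 6 factors exceeded 1.25-fold. Without p62 the highest was 0.45 and 2 exceeded it. Tbx19 held the highest bound each time, and its mice varied most of all the factors; it read 6.88, 6.97 and 7.93 in NT_p62KO and 7.35, 6.46 and 7.43 in HD_p62KO. These bounds hold on the array scale, which understates changes of dim genes. No bounds were computed with array spread as a covariate, where the factors' median mean HD effect was -0.03, against -0.13 without it.

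Opening was also read against the olfactory receptor level. A factor counted as opened where every non-transgenic mouse lay at or below 6.87 and every HD mouse above it. There were 0 of 62 such factors with normal p62, without p62 and over both, while 70, 70 and 31 of all 19248 genes opened. With the level moved to the 90th (6.52) or 99th percentile (7.53) of olfactory receptor genes the counts for the factors were also 0. Of all genes, 32, 47 and 13 opened at the 90th percentile and 89, 122 and 43 at the 99th. So few genes opened across the array that a count of 0 among 62 cannot set the factors apart from other genes. In the other direction, Hoxb1 lay above 7.53 in each NT_p62WT mouse and at or below it in each HD_p62WT mouse. The highest of these HD_p62WT mice read 7.52, just under the level. Hoxb1 was the 1 factor to cross any of the levels downward, and 74 of all 19248 genes crossed that level downward in that comparison. Factors above 6.87 in a single mouse numbered 29 to 34 of 62 in non-transgenic and 26 to 33 in HD mice.

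**Figure D3:**
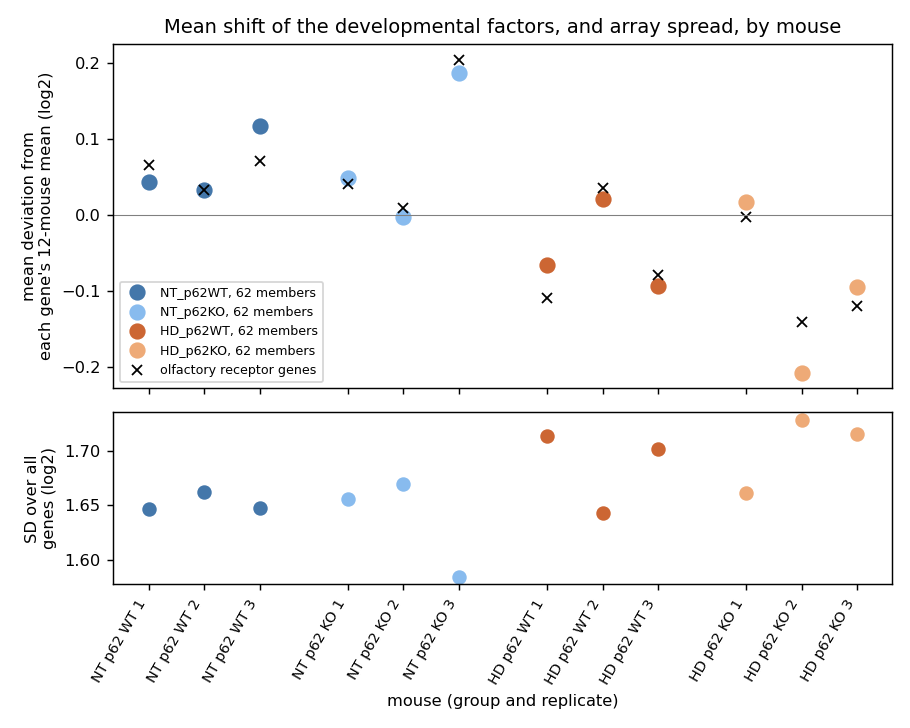
Upper panel: mean over the 62 factors (circles) and over 939 olfactory receptor genes (crosses) of each gene's deviation from its 12-mouse mean (y axis, log2) in each mouse (x axis). Lower panel: SD over all genes of that array (log2). The factors run from 0.19 in NT_p62KO replicate 3, the array of smallest SD (1.585), to -0.21 in HD_p62KO replicate 2, the array of largest SD (1.728).

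The small shift of the factors moved with array spread and with other dim genes. Per mouse, the mean deviation of the 62 factors was -0.003 to 0.19 in non-transgenic mice and -0.21 to 0.02 in HD mice. The olfactory receptor genes gave 0.009 to 0.20 and -0.14 to 0.04. The HD mice with the smallest spread in their group, HD_p62WT replicate 2 (SD 1.643) and HD_p62KO replicate 1 (SD 1.661), were the 2 HD mice in which the factors were not lower, at 0.02 in each. With array spread as a covariate, 2 of 62 factors were called lower in the mean HD effect, Gata5 (-0.24 ± 0.066 SE, adjusted p = 0.0413) and Hoxc6 (-0.18 ± 0.053, adjusted p = 0.0482), beside 6.28% of all genes called lower and 6.92% called higher. The factors' median became -0.03.

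A second normalization separated the factors from olfactory receptors in part. After quantile normalization of the values again, the median mean HD effect of olfactory receptor genes was -0.04, against -0.14 before, while that of the factors was -0.11, against -0.13. Then 13 factors were called lower, 11 of them among the 16, beside 14.4% of all genes called lower and 17.7% called higher. The Pax median was -0.11 in that setting. Whether array spread or the tissue gave the remaining shift was not tested.

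**Figure D4:**
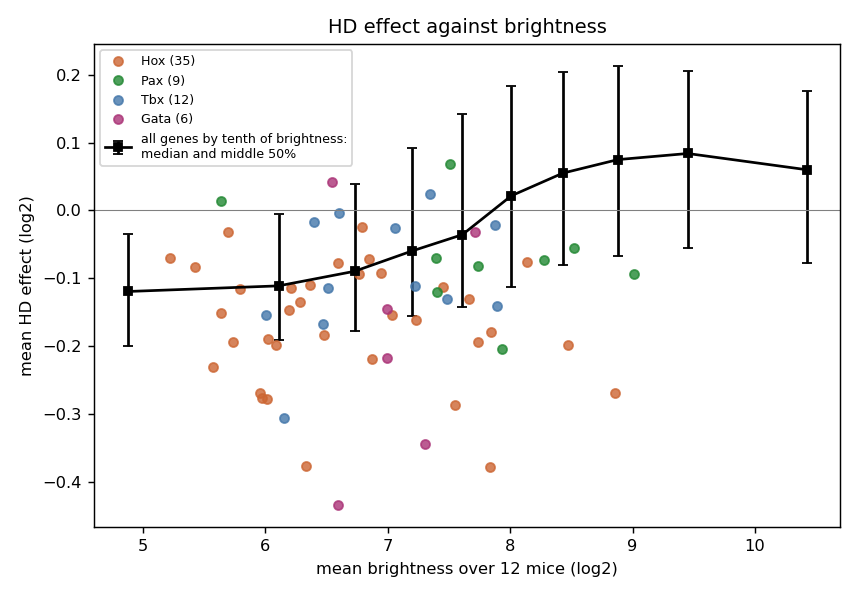
Mean HD effect (y axis, log2) against mean brightness over 12 mice (x axis, log2) of the 62 factors, coloured by family; black squares give the median of all 19248 genes in each decile of brightness, with bars for the middle 50% of genes. The all-gene median climbs from -0.12 in the dimmest decile to 0.08 in the ninth, and most factors lie among the dimmer genes or below the line.

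Across the array, the HD effect depended on brightness. The median of all genes was -0.12 in the dimmest decile, -0.11 in the next and 0.08 in the ninth. In the second decile (5.63 to 6.45), 18 factors had a median of -0.15 beside -0.11 for all genes. In the third, 12 factors had -0.09 beside -0.09. In the fourth, 10 factors had -0.13 beside -0.06, and in the fifth 8 had -0.12 beside -0.04. The 11 brightest factors had medians below 0 in deciles where the median of all genes was above it. In the sixth decile 6 factors had -0.16 beside 0.02, in the seventh 3 had -0.07 beside 0.06, and in the eighth 2 had -0.18 beside 0.08, differences that were not tested. The 3 factors in the dimmest decile, Hoxa10, Hoxc9 and Hoxa11, had a median of -0.08.

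Loss of p62 changed no developmental factor past the test, with or without the HD transgene. In non-transgenic mice 0 of 62 were called in either direction (limma), where 0% of all genes were called higher and 0.0052% lower, which is Sqstm1 itself. In HD mice the counts were likewise 0 and 0, beside 0% and 0.0052%. At an unadjusted p under 0.05 there were 0 factors in non-transgenic mice, beside 1.7% of all genes higher and 1.62% lower. In HD mice there was 1, lower, which is 1.6% of the 62, beside 1.22% of all genes higher and 1.66% lower. The 1 was Hoxb3, at 7.46, 8.09 and 7.91 with p62 and 7.58, 7.32 and 7.52 without it (-0.35 ± 0.15 SE; limma, adjusted p = 1). The groups overlapped.

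The other small p-values for p62 loss belonged to Gata2, a blood stem cell and midbrain factor (0.11 ± 0.061 SE), Pax2 (-0.16 ± 0.094) and Hoxa5 (-0.20 ± 0.13) in non-transgenic mice, all with limma adjusted p = 1. In HD mice they were Hoxc6 (-0.17 ± 0.078) and Hoxd1 (-0.15 ± 0.078), also with adjusted p = 1. Knockouts lay wholly above the mice with p62 for 2 factors and wholly below for 1 in non-transgenic mice, beside 3.88% and 4% of all genes. In HD mice the numbers were 0 and 3, beside 3.26% and 4.11%.

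The HD effect on the factors was not shown to differ between mice with and without p62. The test of the difference itself called 0 of 62 factors higher and 0 lower (limma), and 0% of all genes in either direction. At an unadjusted p under 0.05 it gave 0 higher and 1 lower (1.6%), beside 1.59% and 1.87% of all genes. The 1 was Hoxc6, whose HD effect was -0.25 ± 0.11 (SE) further down without p62 (limma, adjusted p = 0.991). Hoxb13, a gene of the tail end of the axis, gave -0.26 ± 0.13 and Hoxc9 -0.42 ± 0.24, neither past the test. The intervals are wide: that of Hoxc6 ran from -0.50 to -0.01. The HD effects themselves were below 0 in both genotypes for 47 of the 62 factors and above 0 in both for 2.

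Of 28 measured Polycomb genes, 16 were called higher in the mean HD effect, and 7 with array spread as a covariate. Whether this bears on the factors was not tested. In the mean HD effect, 6 of 11 PRC2 genes and 10 of 17 PRC1 genes rose and 1 fell, beside 19.9% of all genes called higher and 15% lower. Bmi1, the PRC1 subunit known for repressing Hox genes, rose by 0.46 ± 0.057 (SE, n = 6 against 6; limma, adjusted p = 0.000264). Phc1 rose by 0.40 ± 0.051 (adjusted p = 0.000292) and Rnf2, the catalytic ubiquitin ligase of PRC1, by 0.37 ± 0.058 (adjusted p = 0.00101). Phc2 fell by 0.13 (adjusted p = 0.0269).

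Among PRC2 genes, Mtf2, an accessory subunit that brings the complex to CG-rich DNA, rose by 0.37 ± 0.065 (SE; adjusted p = 0.00165), and Phf1 (0.22), Eed (0.23), Jarid2 (0.45), Rbbp4 (0.17) and Ezh1 (0.14) also rose. The methyltransferase Ezh2 differed by -0.05 ± 0.058 (adjusted p = 0.485) and Suz12 by 0.18 ± 0.068 (adjusted p = 0.0541). With normal p62, 1 PRC2 gene (Mtf2) and 6 PRC1 genes rose, where 3.85% of all genes were called higher, and without p62, 6 and 8, where 13.3% were. With array spread as a covariate those counts were 0 and 5 with normal p62 (3.06% of all genes higher) and 0 and 1 without it (1.62%). Of the 28 Polycomb genes, 24 were brighter than the median gene, the range in which the median HD effect of all genes was above 0. In the mean HD effect with the covariate, where 6.92% of all genes were called higher, the PRC2 genes Mtf2 (0.26) and Phf1 (0.24) and 5 PRC1 genes rose, among them Bmi1 (0.38), Phc1 (0.44) and Rnf2 (0.25).

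**Figure D5:**
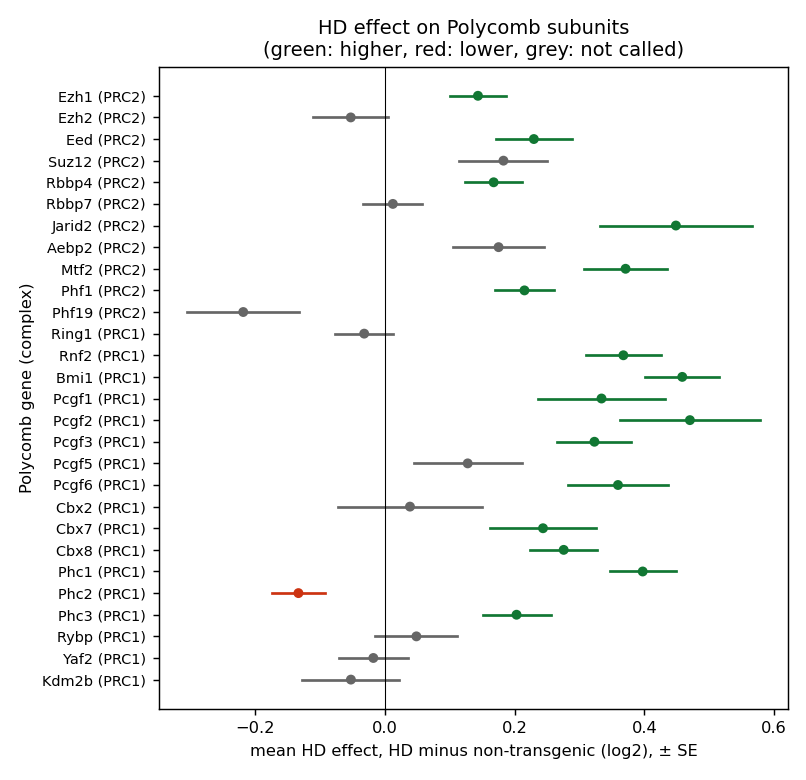
Mean HD effect (x axis, HD minus non-transgenic, log2; bars are ± SE, n = 6 against 6 mice) of the measured PRC2 and PRC1 genes (y axis); green marks genes called higher, red lower and grey not called. Bmi1 (0.46), Pcgf2 (0.47) and Jarid2 (0.45) show the largest rises, and Phc2 is the 1 gene called lower.

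The activating side was taken as genes of the trithorax group, their partner Men1 and the enzymes that remove the PRC2 mark. Of 7 measured, 5 rose and 0 fell, beside 19.9% and 15% of all genes. Among the 5 were the methyltransferase gene Kmt2c (0.29 ± 0.048 SE, adjusted p = 0.00138) and the demethylase gene Kdm6b (0.20 ± 0.052, adjusted p = 0.0122); with array spread as a covariate 1 of the 7, Kmt2c, rose, beside 6.92% of all genes. Kmt2a, which maintains Hox expression in blood, differed by -0.04 (adjusted p = 0.451).

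Partners of HOX and GATA proteins moved in both directions, where 19.9% of all genes were called higher and 15% lower. The HOX partners were called in 12.5% of cases each way. Of 8 measured HOX partners, Meis1 rose by 0.40 ± 0.073 (SE; limma, adjusted p = 0.00219) and Meis2, a bright striatal gene, fell by 0.13 ± 0.047 (adjusted p = 0.0432). Of 5 GATA partners, 3 fell and 1 rose. Lmo2 fell by 0.72 ± 0.061 (adjusted p = 1.58e-05), and by the same amount with normal p62 (0.72) and without it (0.72). Zfpm1, the FOG protein that binds GATA factors, fell by 0.45 ± 0.050 (adjusted p = 0.000132) and Tal1 by 0.20 (adjusted p = 0.0381), while Zfpm2 rose by 0.33 (adjusted p = 0.0292). Of the partners named here, Lmo2 (-0.75), Zfpm1 (-0.44) and Meis1 (0.43) were also called with array spread as a covariate. Meis2, Tal1 and Zfpm2 were not. Of the 8 HOX partners, 1 was called higher and 1 lower with the covariate, the lower one a partner not named here. The all-gene shares were then 6.92% higher and 6.28% lower.

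Of 38 measured developmental factors outside the naming rule, 0 rose and 5 fell in the mean HD effect. The list was not free of the 4 families, as it included the T-box genes T, Eomes and Tbr1. The 5 are 13.2% of the 38, beside 15% of all genes and 25.8% of the 62 factors called lower, and the difference between the lists was not tested. Their median was -0.13, as it was for the 62. Lhx3, a motor neuron and pituitary factor, fell by 0.31 ± 0.062 (SE; limma, adjusted p = 0.00325) and Onecut2 by 0.31 ± 0.080 (adjusted p = 0.0116). Tlx1 (-0.27), Hand1 (-0.21) and Hand2 (-0.18) were the other 3. With array spread as a covariate 0 of the 38 were called.

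Markers of other cell types and of neighbouring tissue were measured beside the factors. Across all genes, 19.9% were called higher and 15% lower in the mean HD effect. Choroid plexus markers differed widely between mice, with a mean over 8 markers of 7.10 to 8.70 in HD_p62WT and 7.07 to 9.45 in HD_p62KO. In non-transgenic mice they also separated by p62, at 7.21 to 7.65 in NT_p62WT and 8.49 to 8.73 in NT_p62KO, with a median log2 difference of 1.12 for p62 loss and 0 of 8 called. Clic6 was the 1 of 8 called in the mean HD effect, higher by 0.64. Cortical neuron markers (6 measured) spanned 7.22 to 8.60 and 0 were called. With normal p62 they separated by HD status, at 7.94 to 8.52 in NT_p62WT and 7.49 to 7.82 in HD_p62WT. Without p62 they overlapped, at 7.40 to 8.60 in NT_p62KO and 7.22 to 8.18 in HD_p62KO. Their median log2 difference in HD was -0.48 with normal p62 and -0.30 without it. Thalamic markers spanned 7.32 to 8.57 with 0 of 6 called, and septal and hypothalamic markers 7.11 to 7.86 with 0 of 5 called. Mural and meningeal markers lay within 7.64 to 7.86 in every group; Kcnj8 was the 1 of 12 called, and fell by 0.22. Endothelial markers lay within 8.31 to 8.60, and Cldn5 was the 1 of 5 called (-0.36). Of neuroblast markers 2 of 8 rose, Dcx by 0.44 and Sox11 by 0.32; of astrocyte markers 1 of 5 fell, Aqp4 by 0.22; of microglial markers 0 of 4 were called; and of red cell markers 1 of 5 was measured and not called. With array spread as a covariate, 0 choroid plexus, mural and endothelial markers were called in the mean HD effect. Of neuroblast markers 1 then rose and 1 fell, and of astrocyte markers 2 fell. The all-gene shares were then 6.92% higher and 6.28% lower. The part of these markers in the values of the factors was not tested.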

How the data were processed

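Whole-transcript Affymetrix arrays were run on 100 ng of striatal RNA from each of 12 mice, per the labels. The values the authors deposited are log2 expression per probe set. The submitters' processing notes name RMA; its version, the build and any filter were not given in the sources used here. As this method evens out the arrays, it hides any change common to most genes. Scanner files were not used here. The platform table pairs 19942 of 24055 probe sets with 1 gene symbol and 1225 with several, and does not list 2888; the brightest probe set per gene left 19248 genes. A probe set listed for both Hoxb8 and Hoxb7 was left out. All 62 factors matched the RefSeq gene table (GRCm38.p6).

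Groups come from the sample titles, which call each sample a biological replicate, taken here as 1 mouse. The p-values therefore reflect spread between these samples only, and the number of arrays limits precision. limma 3.58.1 (R 4.3.3) was fitted over the 12 arrays with a mean for each group (residual degrees of freedom 8, prior 4.14), with Benjamini-Hochberg adjustment over all genes within each of 6 contrasts and a threshold of 0.05. Correlations of arrays within groups were 0.987 to 0.995. Scripts were tested on simulated data. Alternatives covered the replicate block, normalization, array spread, dim genes, probe sets, variance prior, array weights, thresholds and leaving out each mouse. The members, gene lists, tests and alternatives were chosen with earlier results of these data known. Named factors are those past the threshold, the 3 smallest p-values per contrast, and the brightest and dimmest per family; others, such as those of highest bound or opposite sign, were named after their values were seen. From the other lists, up to 3 genes with the smallest p per HD contrast were named, and the rest after their values were seen.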

Additional observations from a re-analysis of the deposited data

How the results depend on the processing

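No developmental factor was called higher in any HD comparison under any setting run. Counts of factors called, all lower, moved as follows. The HD effect with normal p62 (0) gave 1 after quantile normalization again, without genes below the 25th percentile of brightness or with only the groups compared, 2 at an adjusted p below 0.1, 7 with array weights, and 0 to 1 leaving out each mouse. The HD effect without p62 (8) gave 0 with array spread as a covariate, 1 without the 3 arrays of smallest spread, 3 without genes below median brightness, 2 with only the groups compared, 14 with array weights, 1 and 14 at adjusted p below 0.01 and 0.1, and 1 to 17 leaving out each mouse. The mean HD effect (16) gave 2 with array spread as a covariate, 8 without the 3 arrays, 10 and 5 without genes below the 25th percentile and below the median, 4 at an adjusted p below 0.01, and 10 to 23 leaving out each mouse; 10 came without NT_p62KO replicate 3, HD_p62WT replicate 1, HD_p62WT replicate 3 or HD_p62KO replicate 2. Stricter thresholds, fewer genes and fewer mice change the counts by construction; for the other settings the cause was not tested. Factors above the olfactory receptor level numbered 31 at the 95th percentile and 16 at the 99th. The 3 comparisons of p62 loss and of the HD effects stayed at 0 in every setting. No called value changed sign: in 578 refits of 24 called gene values, 161 lost the call.

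Replicate numbers recur in each group. Of 18 same-numbered pairs, 4 had deviations that correlated above 0.1 (range -0.337 to 0.206), and 2 of 12 mice correlated best with their own number. The samples were therefore treated as unpaired, though weak correlations cannot show that same-numbered samples shared nothing else. With the replicate number as a block, 0, 6 and 13 factors were called lower in the 3 HD comparisons and 0 in the others.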
